A study of Caenorhabditis elegans with 12 samples.

Results

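The interaction of the nuo-6(qm200) and itr-1(sa73) mutations in Caenorhabditis elegans is described here gene by gene, as the amount by which the effect of nuo-6(qm200) in worms that also carried itr-1(sa73) differed from its effect in worms with no mutation. All 12 libraries of the series enter the contrast, 3 from each of 4 genotypes: the wild-type strain N2, the single mutant itr-1(sa73), the single mutant nuo-6(qm200) and the double mutant nuo-6(qm200); itr-1(sa73). Every group, N2 included, was made of whole worms from cultures of about 1000 animals, synchronised by bleaching and grown to the last larval stage, L4, on HT115 bacteria that carried an empty vector. Of the 46926 genes in the deposited table, 15230 had at least 1 TPM (transcripts counted relative to the library's total) in at least 3 libraries and were tested. The interaction is the difference (double mutant minus itr-1) minus (nuo-6 minus N2) on the log2(TPM + 1) scale, so 0 means that the effects of the mutations added up on that scale. A negative value means that the double mutant stood below that sum, and a positive value that it stood above.

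itr-1 encodes the inositol trisphosphate (InsP3) receptor of the worm, a channel that releases calcium from the endoplasmic reticulum when phospholipase C makes InsP3, and it sets rhythms such as defecation, pharyngeal pumping and the contractions that accompany ovulation. nuo-6 encodes a subunit of complex I of the mitochondrial respiratory chain, and the qm200 allele slows respiration and development and lengthens life. Calcium that leaves the endoplasmic reticulum is taken up by mitochondria, where it regulates metabolism, and the series' title links InsP3 receptor signalling, actomyosin and mitochondrial dynamics to the long life of worms under mitochondrial stress. Both alleles are missense changes, so the level of either transcript does not check the labels.

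Values were deposited as TPM and keep no sequencing depth, so no depth can be given for any library. Libraries of the same genotype correlated at 0.975 to 0.992 over genes, and the first principal component held 53.9% of the variance. The N2 libraries stood apart in genes that rise late in L4 and in adults. The mean log2(TPM + 1) of 3 adult cuticle collagens (col-7, col-19 and col-62) was 4.04 to 6.17 in N2, 6.24 to 7.54 in the double mutant, 8.07 to 8.38 in nuo-6 and 7.33 to 8.43 in itr-1. The mean of an oocyte list of 29 genes was 3.23 to 4.08 in N2 against 4.25 to 5.86 over the 9 mutant libraries. The sperm list of 92 genes averaged 4.09 to 4.44 in N2, 3.80 to 4.88 in the double mutant, 4.49 to 4.68 in nuo-6 and 4.91 to 5.30 in itr-1. By contrast the groups overlapped for the mitotic and meiotic germ line list. No marker of germ line, intestine, hypodermis, body wall muscle or neurons was at 0 in every library, and of these 40 markers 1 had a positive and 1 a negative interaction. How far the stage of each culture contributes to the interactions below was not tested, but every interaction was also fitted with the oocyte, the sperm or the adult collagen mean as a covariate, and where counts are given with the covariates below, they are the calls of the list in those 3 fits, in the order oocyte, sperm and adult collagen. Over all genes tested 8.32% had a negative and 3.69% a positive interaction, and list counts without a covariate are to be read against these shares. In the oocyte, sperm and adult collagen fits 637, 302 and 36 of the 15230 genes were negative. In the same order 1.19%, 0.446% and 0.0919% were positive. List counts with the covariates are to be read against these lower values. The labels say that the replicates are biological but not what replicate numbers share.

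**Figure D1:**
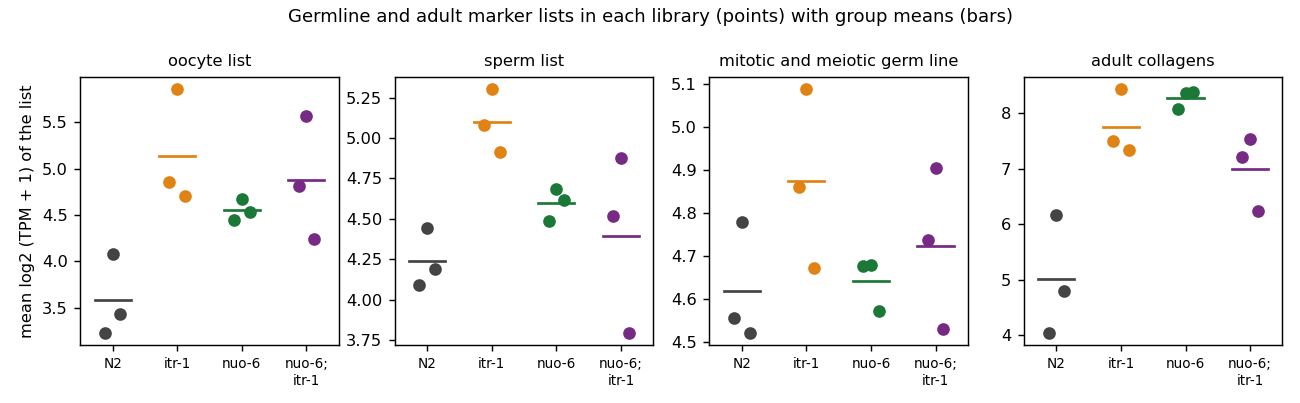
Mean log2(TPM + 1) of 4 marker lists (vertical axes) in each of the 12 libraries, with 1 point per library and a bar at each group mean. The 3 N2 libraries (adult collagens 4.04 to 6.17) lie below all 9 mutant libraries for the oocyte list and for the adult collagens.

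The mutated genes themselves showed no interaction past the threshold of an adjusted p of 0.05 (limma with Benjamini-Hochberg adjustment over the 15230 genes, as for all adjusted p-values here; errors are standard errors). itr-1 measured 17.6, 22.9 and 23.2 TPM in N2, 27.6, 30.3 and 33.1 in nuo-6, 31.8, 25.4 and 23.9 in itr-1 and 32.3, 34.6 and 34.1 in the double mutant. The N2 libraries were the lowest, and the interaction was -0.19 ± 0.18 (adjusted p = 0.522). nuo-6 measured 329, 316 and 327 TPM in N2, 374, 399.9 and 401 in nuo-6, 290.1, 265 and 285 in itr-1 and 325, 288 and 314 in the double mutant. All 3 nuo-6 libraries lay above all others, the remaining genotypes lay within 265 to 329 TPM, and the interaction was -0.13 ± 0.08 (adjusted p = 0.302). Both transcripts were present in every library.

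An interaction past the threshold was found for 1829 of the 15230 genes, or 12%. It was negative for 1267 genes, 8.32% of those tested, and positive for 562, or 3.69%. The median over all genes tested was -0.05, and 90% of the genes lay between -1.19 and 0.57. At least a 2-fold interaction was reached by 836 of the called genes (5.49% of those tested), 732 of them (4.81%) negative and the rest (0.683%) positive. The sign was the same in all 81 ways of taking 1 library per genotype for 2777 genes (18.2%; 6.78% positive and 11.5% negative), which included 1788 of the 1829 called. The excess of negative calls depended on the scaling: positive calls made up 30.7% of all calls on TPM, 46.1% (993 positive and 1160 negative) after median-of-ratios scaling and 51.9% (1073 positive and 995 negative) after quantile normalization, which raised the median of all genes from -0.05 to 0.02 and 0.07. The count fell to 952 without N2 replicate 1, 1139 without N2 replicate 3, 881 without nuo-6 replicate 2, 921 without nuo-6 replicate 3 and 1060 without double mutant replicate 1. Of the 1829 calls, 774 held, with their sign, whichever library was left out, and 1470 held under both other scalings.

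The form of the interaction was read from the effects of each mutation in the 2 backgrounds. nuo-6 changed 7968 genes in the N2 background, 52.3% of those tested, with 37.3% higher and 15% lower. In the itr-1 background it changed 6964 genes, or 45.7%, with 29.3% higher and 16.4% lower. itr-1 changed 6109 genes in the N2 background, or 40.1%, with 29% higher and 11.1% lower. In the nuo-6 background it changed 2353 genes, or 15.4%, with 9.99% higher and 5.46% lower. Among the 1829 genes with an interaction, the nuo-6 effect passed the threshold in the N2 background alone for 806 genes and in the itr-1 background alone for 407. In both backgrounds it had the same direction and was smaller with itr-1 for 348 genes, larger for 78, and had the opposite direction for 175. For 15 genes neither effect passed. The itr-1 effect passed in the N2 background alone for 1307 of the 1829, in the nuo-6 background alone for 258, and with opposite directions for 92. Over all genes, the nuo-6 effects in the 2 backgrounds, which share no library, had a Pearson correlation of 0.57 and standard deviations of 0.67 and 0.57, and the itr-1 effects had a correlation of 0.27 and standard deviations of 0.56 and 0.38. These are descriptions across genes, which are not independent replicates.

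**Figure D2:**
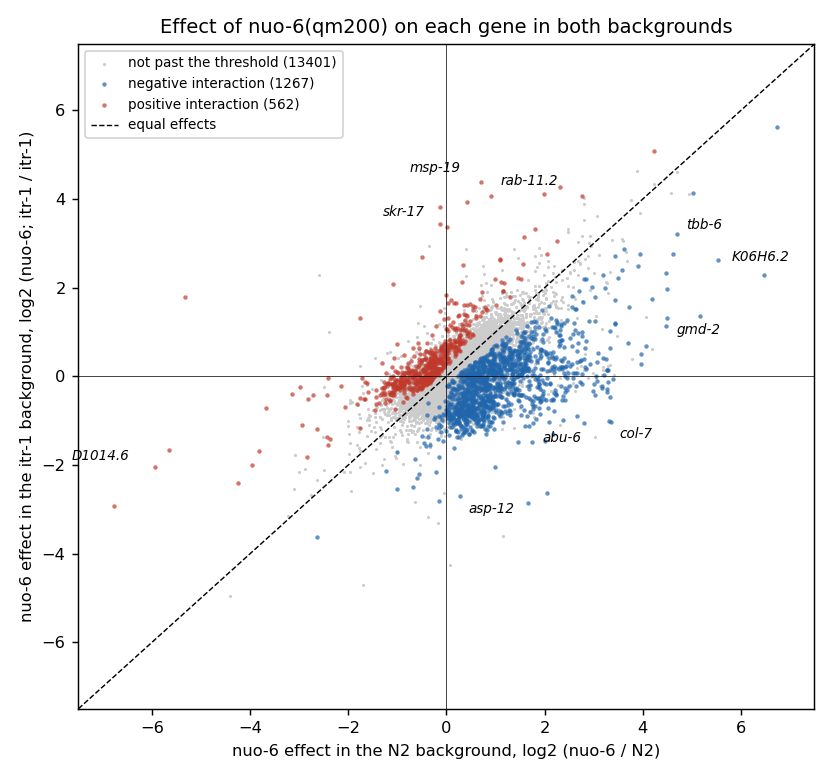
Effect of nuo-6(qm200) on each of the 15230 genes tested, as log2 difference in the N2 background (horizontal axis) and in the itr-1 background (vertical axis), with 1 point per gene, coloured by the sign of an interaction past the threshold. Points off the dashed line have unequal effects: the 1267 negative interactions lie to its right, and the 562 positive ones to its left.

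A genotype was said to stand apart for a gene where its 3 libraries lay outside the range of the other 9 and its mean log2 level was at least as far from the nearest other mean as the other 3 means were from each other, a definition chosen after the values were seen. N2 was the lowest in this sense for 548 of the 1829 genes and the highest for 210. itr-1 was the highest for 184 genes and the lowest for 70. nuo-6 was the highest for 77 and the lowest for 34. The double mutant was the highest for 65 and the lowest for 19. In the other 622 no genotype stood apart. For the 548 genes lowest in N2, the median effects against N2 were 1.32 for nuo-6, 1.15 for itr-1 and 1.28 for the double mutant on the log2 scale, and the double mutant's mean was above both single mutants in 207 of them. With the oocyte, sperm or adult collagen mean as a covariate, 340, 198 and 25 of these 548 calls held. The adult collagen covariate was added after the data were seen. It left 50 genes past the threshold over all genes, 47 of them among the 1829, and 44 of those also held in every fit without 1 library and under both other scalings. A gene is called robust here where it is among these 44. All but 3 of the other calls ended with the adult collagen covariate, and the adult collagen mean lies in N2 below every mutant library.

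The abu and pqn genes, which encode glutamine- and asparagine-rich proteins, some of them secreted and found in the cuticle that lines the pharynx, had many negative interactions. Of 63 tested, 21 had a negative and 1 a positive interaction, with a median of -0.16 against -0.05 for all genes, and 18 of the 21 had N2 apart as the lowest. The negative share was 33.3% against 8.32% of all genes, and with the covariates 19, 17 and 5 were negative. abu-6 measured 3.74, 5.12 and 4.24 TPM in N2, 15.7, 18.6 and 17.5 in nuo-6, 22.1, 22.1 and 23.9 in itr-1 and 10.6, 10.4 and 9.96 in the double mutant. N2 was lowest, both single mutants were highest, and the double mutant lay between them with no overlap. nuo-6 raised abu-6 by 1.77 (adjusted p = 3.20e-07) in the N2 background while its effect in the itr-1 background was -1.06 (adjusted p = 1.84e-05), and the interaction was -2.83 ± 0.14 (adjusted p = 1.73e-06). A sum of the single effects would have put the double mutant at 79.6 TPM. abu-7, its neighbour on chromosome V, showed the same order, with an interaction of -2.53 ± 0.16 (adjusted p = 1.17e-05). abu-8 measured 9.80, 13.9 and 11.6 TPM in N2, 43.5, 49.7 and 45 in nuo-6, 53.3, 56.03 and 61.4 in itr-1 and 47.7, 45.5 and 50.05 in the double mutant, where the 3 mutant genotypes lay close to each other, and its interaction was -2.14 ± 0.15 (adjusted p = 2.70e-05). abu-6, abu-7, abu-8, abu-10 and pqn-72 were robust. These genes have near-identical copies between which reads can be split, so values of single members are uncertain.

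**Figure D3:**
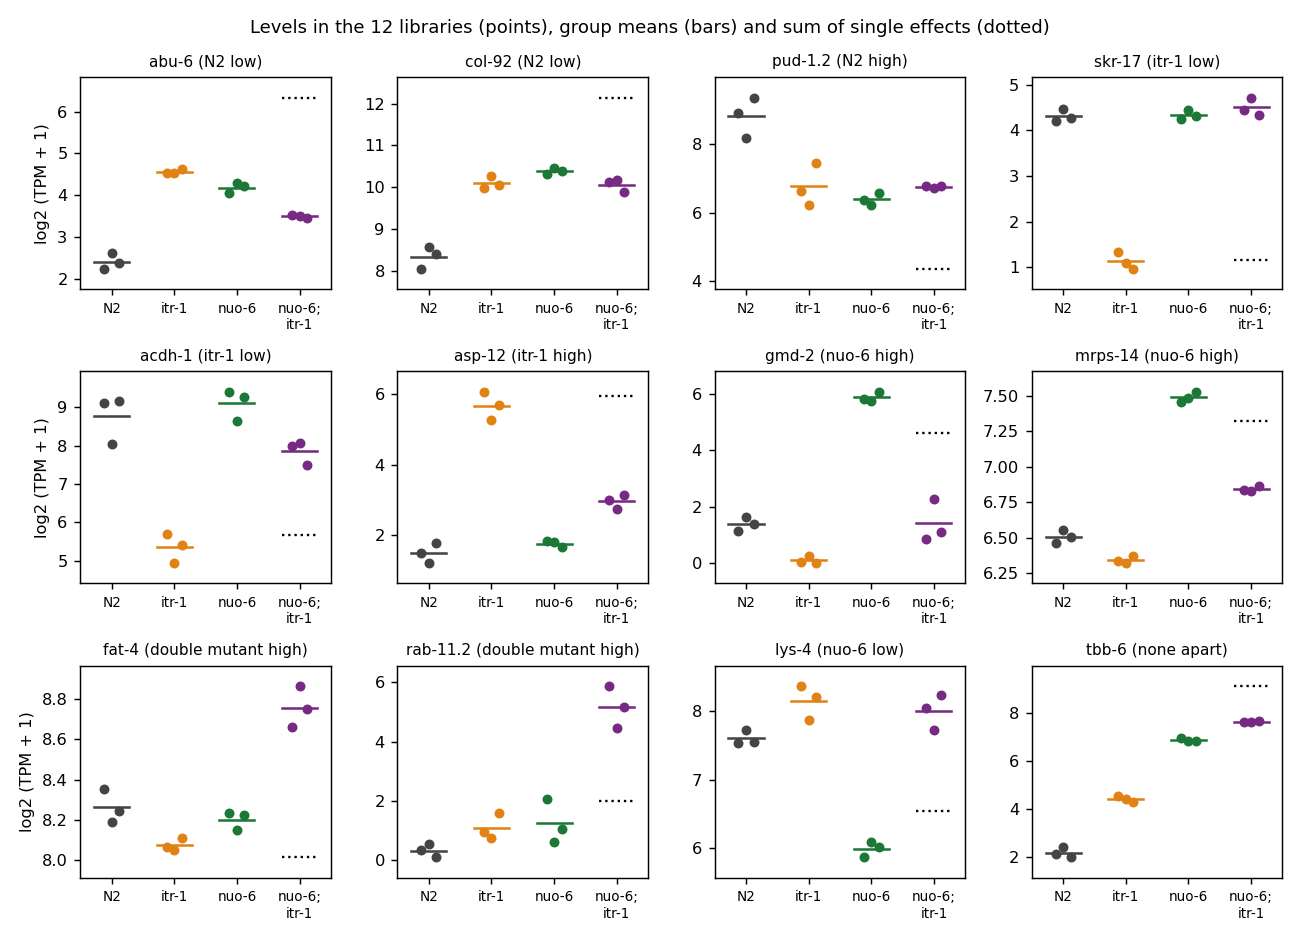
Level of 12 genes as log2(TPM + 1) (vertical axes) in the 12 libraries, with 1 point per library, a bar at each group mean and a dotted line at the level that the summed effects of both single mutations would give the double mutant. The dotted line lies above the double mutant's points for abu-6, col-92, asp-12, gmd-2, mrps-14 and tbb-6 and below them for the other 6 genes.

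Cuticle collagens, the structural proteins of the exoskeleton that are made anew before each moult, were another group with many negative interactions. Of 136 tested, 59 had a negative and 6 a positive interaction, with a median of -0.60, and N2 stood apart as the lowest for 38 of the 59. These are 43.4% negative and 4.41% positive, against 8.32% and 3.69% of all genes. With the covariates 51, 21 and 3 were negative, the median was -0.56, -0.44 and -0.17, and none was positive. The median collagen was 0.77 higher in nuo-6 than in N2 and 0.46 higher in itr-1 than in N2, but -0.11 in the double mutant against itr-1 and -0.38 against nuo-6. col-92 measured 266, 379 and 337 TPM in N2, 1267, 1413 and 1335 in nuo-6, 1009, 1227 and 1062 in itr-1 and 1113, 1150 and 946 in the double mutant. Every mutant library was above every N2 library, and the interaction was -2.08 ± 0.18 (adjusted p = 5.74e-05). col-91 had an interaction of -2.29 ± 0.18 (adjusted p = 3.85e-05) and col-156 one of -1.96 ± 0.18 (adjusted p = 9.92e-05); all 3 were robust. The collagens with the largest interactions were col-7 and col-62, which are adult genes. col-7 measured 4.96, 27.4 and 8.06 TPM in N2, 105, 121 and 124 in nuo-6, 76.99, 125 and 63.8 in itr-1 and 50.5, 53.00 and 25.8 in the double mutant. The single mutants were above N2 and the double mutant, which overlapped each other, and the interaction was -4.38 ± 0.69 (adjusted p = 0.00325). col-62 had an interaction of -4.32 ± 0.65 (adjusted p = 0.00251). Both are part of the adult collagen covariate. The moulting peroxidase gene mlt-7 rose from 12.7 to 17.3 TPM in N2 to 35.0 to 42.04 TPM in all 9 mutant libraries, with an interaction of -1.26 ± 0.15 (adjusted p = 4.67e-04).

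Hedgehog-related genes, whose secreted products act in the epidermis and its extracellular matrix, had 12 negative and 9 positive calls among 66, 18.2% and 13.6% against 8.32% and 3.69% of all genes. With the covariates 10, 7 and 0 were negative and 1, 0 and 0 positive. grl-21 measured 7.12, 10.6 and 6.30 TPM in N2, 44.95, 62.3 and 60.1 in nuo-6, 56.2, 53.99 and 53.4 in itr-1 and 67.3, 48.8 and 57.7 in the double mutant. The 3 mutant genotypes overlapped one another and lay well above N2, and the interaction was -2.60 ± 0.25 (adjusted p = 1.34e-04). grl-4 had an interaction of -2.11 ± 0.18 (adjusted p = 5.74e-05). The patched-related genes ptr-3, ptr-8, ptr-13 and ptr-23 and the hedgehog-related gene grd-6 were also negative with N2 lowest. Among the positive ones wrt-1, grl-5, grl-7, grl-10, grl-15, ptr-4 and ptc-3 were highest in N2; the 9 positive calls became 3 to 5 without N2 replicate 1 or 3, nuo-6 replicate 2 or 3, or double mutant replicate 1 or 3, and 14 without itr-1 replicate 1. Antimicrobial peptide genes were negative in 19 and positive in 5 of 72, and 15 of the 19 were lowest in N2; 26.4% were negative against 8.32% of all genes, and 15, 9 and 2 with the covariates. Most of the 19 belong to the fipr family of small secreted peptides. fipr-11 measured 9.42, 9.72 and 9.42 TPM in N2, 31.3, 29.5 and 31.8 in nuo-6, 30.4, 39.9 and 25.1 in itr-1 and 15.7, 14.1 and 11.8 in the double mutant. The double mutant lay between N2 and the single mutants, and its interaction was -2.72 ± 0.20 (adjusted p = 3.36e-05), a robust call together with fipr-6. nlp-27, a neuropeptide-like antimicrobial peptide gene of the epidermis, measured 36.7, 46.8 and 29.4 TPM in N2, 155, 164 and 197 in nuo-6, 109, 132 and 111 in itr-1 and 172, 179 and 164 in the double mutant. N2 was lowest, itr-1 intermediate, and nuo-6 and the double mutant overlapped, with an interaction of -1.63 ± 0.21 (adjusted p = 8.60e-04).

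Many genes with positive interactions were highest in N2: each mutation alone went with a lower level, and both together with little or no further fall. All 6 pud genes tested, which form 1 cluster on chromosome V (2322038 to 2330930, build WBcel235) and were named for a protein that rises in an insulin receptor mutant of the worm, had a positive interaction, with a median of 2.08. pud-1.2 measured 472, 285 and 646 TPM in N2, 81.6, 73.8 and 94.5 in nuo-6, 98.4, 74.03 and 173 in itr-1 and 107, 103 and 108 in the double mutant. N2 was highest, and the itr-1 libraries overlapped those of nuo-6 and of the double mutant. The nuo-6 effect on pud-1.2 was -2.40 (adjusted p = 8.87e-05) in the N2 background and -0.03 (adjusted p = 0.947) in the itr-1 background, and the interaction was 2.37 ± 0.44 (adjusted p = 0.00759). The pud copies are alike in sequence, so reads may be split among them. All 6 calls ended with each of the 3 covariates, and 3 held without nuo-6 replicate 2.

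A few genes were nearly silent in every mutant. D1014.6 on chromosome V measured 60.5, 63.2 and 60.6 TPM in N2, 0.038, 0.018 and 0 in nuo-6, 2.59, 3.65 and 3.39 in itr-1 and 0, 0.021 and 0.018 in the double mutant. itr-1 fell to a low level and both genotypes with nuo-6 to near 0, and the interaction was 3.89 ± 0.14 (adjusted p = 1.78e-07). Its neighbour D1014.7 measured 58.3, 58.1 and 55.9 TPM in N2, 0.233, 0.101 and 0.149 in nuo-6, 2.43, 2.73 and 3.43 in itr-1 and 0.207, 0.19 and 0.219 in the double mutant, again with N2 highest and itr-1 next. BE0003N10.6 on chromosome III measured 223, 239 and 252 TPM in N2, 1.18, 0.959 and 1.47 in nuo-6, 10.2, 14.6 and 12.57 in itr-1 and 0.684, 0.987 and 0.595 in the double mutant, with an interaction of 3.84 ± 0.19 (adjusted p = 1.73e-06). For all 3 the summed single effects lie below 0 TPM, so no level of the double mutant could have given an interaction of 0 on this scale, and the value shows only that the fall could not be added up. This held for 30 of the 562 positive calls. These 3 genes were robust, and they were singled out after their values were seen.

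The 4 neighbouring genes exh-1, C36C5.12, C36C5.14 and C36C5.15 on chromosome V (3157086 to 3168750) were also positive, and each was highest in N2. exh-1 measured 106, 83.2 and 93.8 TPM in N2, 16.6, 14.7 and 11.8 in nuo-6, 37.9, 32.5 and 42.1 in itr-1 and 17.3, 14.4 and 16.1 in the double mutant, so itr-1 lay between N2 and the overlapping nuo-6 and double mutant libraries, and its interaction was 1.45 ± 0.19 (adjusted p = 0.0011). irg-5, a gene induced by bacterial infection, fell from 4.29, 3.01 and 5.19 TPM in N2 to between 0.280 and 0.591 TPM in all mutant libraries. Its interaction was 1.67 ± 0.21 (adjusted p = 6.91e-04), and here too the sum of the effects lies below 0 TPM. irg-5 reached 1 TPM in the N2 libraries only, so it was tested only through the group where it is high, and its call adds no support of its own. Glutathione S-transferases, detoxifying enzymes many of which respond to oxidative stress, were positive in 10 and negative in 3 of 45, with a median of 0.27. The positive share was 22.2% against 3.69% of all genes, and 2, 1 and 0 were positive with the covariates. The 10 positive calls became 3 to 6 without N2 replicate 1 or 3, itr-1 replicate 1 or 2, nuo-6 replicate 2 or 3, or double mutant replicate 1 or 3. gst-10 measured 403, 385 and 555 TPM in N2, 162, 182 and 207 in nuo-6, 79.8, 76.2 and 92.8 in itr-1 and 69.7, 88.2 and 69.7 in the double mutant. N2 was highest, nuo-6 next, and itr-1 and the double mutant lowest, with an interaction of 1.14 ± 0.21 (adjusted p = 0.00809).

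Some genes were low in the itr-1 single mutant and at or nearer to the N2 level in worms that carried nuo-6(qm200) as well. skr-17, a Skp1-related component of ubiquitin ligases, measured 17.3, 21.2 and 18.3 TPM in N2, 17.98, 20.7 and 18.8 in nuo-6, 1.53, 1.13 and 0.958 in itr-1 and 20.9, 25.3 and 19.3 in the double mutant. The 3 itr-1 libraries were far below all others, and N2, nuo-6 and the double mutant overlapped or nearly so. The nuo-6 effect on skr-17 was 0.02 (adjusted p = 0.906) in the N2 background and 3.37 (adjusted p = 6.06e-08) in the itr-1 background, and the interaction was 3.35 ± 0.18 (adjusted p = 2.94e-06). Y16B4A.2 on the X chromosome measured 41.8, 37.2 and 41.5 TPM in N2, 33.1, 37.4 and 38.7 in nuo-6, 4.49, 2.72 and 2.91 in itr-1 and 45.3, 41.96 and 51.01 in the double mutant, with the same order and an interaction of 3.59 ± 0.19 (adjusted p = 2.97e-06). Both calls were robust. The double mutant carries the same itr-1(sa73) allele by its label, so these genes were low in the itr-1 single mutant cultures and not in all worms with that allele. Whether the strains also differ elsewhere in the genome was not tested.

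A block of neighbouring genes on chromosome IV (5258685 to 5269626, 10.9 kb) was also low in the itr-1 single mutant alone. The 5 genes ttbk-2.1, a tau tubulin kinase homologue, msp-19, a major sperm protein gene, WBGene00018127, F36H12.5 and F36H12.4 were low or at 0 in the itr-1 libraries only. F36H12.4 was listed at 0 in all 3 itr-1 libraries, and measured 16.9, 17.5 and 22.2 TPM in N2, 15.7, 15.3 and 20.3 in nuo-6 and 12.9, 20.4 and 8.36 in the double mutant. F36H12.5 and WBGene00018127 were likewise listed at 0 in all itr-1 libraries and between 3.68 and 18.7 TPM in all others. msp-19 measured 66.5, 80.8 and 64.4 TPM in N2, 101, 121 and 126 in nuo-6, 3.79, 5.02 and 3.79 in itr-1 and 119, 175 and 57.7 in the double mutant, with an interaction of 3.67 ± 0.43 (adjusted p = 5.40e-04), and ttbk-2.1 had one of 1.62 ± 0.31 (adjusted p = 0.00875). All 5 calls were robust. The only other gene tested inside the block, WBGene00003445, had the opposite sign, at -1.53 ± 0.26 (adjusted p = 0.00519). The block lies 2.41 Mb from the itr-1 gene on the same chromosome. The labels give the double mutant the same itr-1 allele, and whether the strains differ in this block itself was not tested, so the interaction values here do not show an effect of nuo-6(qm200) on these genes. Members of the msp family are nearly identical, so reads of msp-19 may come in part from its copies.

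Genes that break down propionate, by the vitamin B12-independent shunt or by the canonical B12-dependent route, and nuclear hormone receptor genes placed with them made a list of 13. Of these 5 were positive and none negative, 38.5% against 3.69% of all genes: acdh-1, hphd-1 and alh-8 of the shunt, pcca-1 of the canonical route and the receptor gene nhr-68. With the covariates 1, 0 and 0 were positive. The list had a median of 0.26, and 3 were positive without N2 replicate 1, itr-1 replicate 2 or 3, nuo-6 replicate 2 or 3, or double mutant replicate 1. acdh-1, the acyl-CoA dehydrogenase of the shunt's first step, measured 551, 262 and 568 TPM in N2, 674, 397 and 612 in nuo-6, 50.9, 29.7 and 41.5 in itr-1 and 255, 268 and 179.9 in the double mutant. itr-1 was lowest, N2 and nuo-6 overlapped, and the double mutant lay below nuo-6 and overlapped N2 through N2 replicate 2. The itr-1 effect on acdh-1 was -3.42 (adjusted p = 2.93e-05) in the N2 background and -1.24 (adjusted p = 0.0235) in the nuo-6 background, and the interaction was 2.18 ± 0.45 (adjusted p = 0.013). hphd-1, the 3-hydroxypropionate dehydrogenase, measured 180.3, 118 and 184 TPM in N2, 202, 166 and 196 in nuo-6, 42.01, 35.6 and 40.4 in itr-1 and 106, 107 and 99.1 in the double mutant, with the double mutant between itr-1 and the other genotypes and an interaction of 1.13 ± 0.21 (adjusted p = 0.00828). alh-8, the last dehydrogenase of the shunt, measured 433, 374 and 409 TPM in N2, 401, 372 and 393 in nuo-6, 269, 274 and 275 in itr-1 and 390.0, 364 and 399 in the double mutant; here the double mutant overlapped N2 and nuo-6, and the interaction was 0.55 ± 0.08 (adjusted p = 0.00248). All 3 calls held whichever library was left out, and those of acdh-1 and hphd-1 ended with the oocyte covariate. gst-4, a reporter gene of the oxidative stress factor SKN-1, measured 156, 131 and 122 TPM in N2, 223, 170.4 and 179.6 in nuo-6, 31.96, 41.9 and 35.6 in itr-1 and 123, 114.3 and 106 in the double mutant. itr-1 was lowest, and the double mutant lay below nuo-6 and just overlapped N2, with an interaction of 1.15 ± 0.18 (adjusted p = 0.00326).

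Genes that were high in itr-1 and not in the double mutant included sperm genes. Of 92 sperm genes tested, 43 were negative and 2 positive, with a median of -1.28; itr-1 stood apart as the highest for 23 of the 43. The negative share was 46.7% against 8.32% of all genes. With the covariates 11, 4 and 0 were negative and the median was -0.48, -0.07 and 0.25, so it turned sign with the adult collagen mean. The sperm covariate is the mean of this same list, so that fit takes out the list's shared shift by construction. msp-45 measured 41.7, 62.4 and 48.3 TPM in N2, 38.4, 44.5 and 47.4 in nuo-6, 124, 161 and 129 in itr-1 and 32.1, 44.2 and 19.1 in the double mutant. The 3 itr-1 libraries were highest and all others overlapped, so itr-1 raised msp-45 by 1.43 (adjusted p = 0.00165) in the N2 background while its effect in the nuo-6 background was -0.51 (adjusted p = 0.192), and the interaction was -1.95 ± 0.35 (adjusted p = 0.00706). The sum over the list was 5817 to 8094 TPM in itr-1 against 1999 to 5229 in the double mutant, 3678 to 4323 in nuo-6 and 2418 to 3296 in N2. The number of negative sperm genes was 11 without N2 replicate 1 or without nuo-6 replicate 2, 15 without itr-1 replicate 2 or nuo-6 replicate 3, 18 without N2 replicate 3, 26 without double mutant replicate 1, 27 without itr-1 replicate 1 and 59 without double mutant replicate 2. In whole worms, fewer sperm-forming cells and less RNA per cell cannot be told apart. The oocyte list had a median of -1.08 but 1 call among 29, perm-4, which ended in 8 of the 12 fits without 1 library; without double mutant replicate 2 there were 17 negative calls, and without N2 replicate 2 there were 4. With the replicate number as a block in the fit, 21 of the 29 were negative.

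Outside the germ line, asp-12, an aspartyl protease gene, measured 1.83, 1.33 and 2.42 TPM in N2, 2.57, 2.48 and 2.18 in nuo-6, 65.8, 37.1 and 50.7 in itr-1 and 6.93, 5.67 and 7.90 in the double mutant. itr-1 was far above every other library, the double mutant was next, and N2 and nuo-6 overlapped, with an interaction of -2.98 ± 0.28 (adjusted p = 1.16e-04). clec-70, a C-type lectin gene, measured 0.11, 0.099 and 0.337 TPM in N2, 0.074, 0.07 and 0.022 in nuo-6, 40.98, 28.1 and 42.6 in itr-1 and 3.36, 4.09 and 5.85 in the double mutant. It was all but absent in N2 and nuo-6, high in itr-1 and intermediate in the double mutant, with an interaction of -2.66 ± 0.26 (adjusted p = 1.54e-04). Its neighbour clec-71 was between 2.34 and 2.70 TPM in itr-1 and between 0.0370 and 0.326 TPM elsewhere, at -1.40 ± 0.13 (adjusted p = 9.37e-05). It reached 1 TPM in the itr-1 libraries only, so it was tested only through the group where it is high. asp-12 and clec-70 were robust. ilys-3, an invertebrate lysozyme gene active against bacteria, measured 0, 0.494 and 0 TPM in N2, 2.83, 2.75 and 1.15 in nuo-6, 15.9, 7.23 and 9.74 in itr-1 and 3.55, 2.06 and 3.97 in the double mutant, so that it rose with either mutation but was lower in the double mutant than in itr-1, at -2.94 ± 0.44 (adjusted p = 0.0025). C-type lectins had 12 negative and 7 positive of 108, 11.1% and 6.48% beside 8.32% and 3.69% of all genes, with 12, 8 and 2 negative and 1, 0 and 0 positive with the covariates, and 7 negative without N2 replicate 1 or nuo-6 replicate 3 and 21 without double mutant replicate 2.

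Another form was a gene raised by nuo-6 alone and, on the log2(TPM + 1) scale, much less when itr-1 was mutated too. gmd-2, a GDP-mannose dehydratase gene that serves the making of fucosylated glycans, measured 1.18, 2.08 and 1.58 TPM in N2, 54.8, 52.9 and 65.8 in nuo-6, 0.024, 0.189 and 0 in itr-1 and 0.804, 3.87 and 1.16 in the double mutant. All 3 nuo-6 libraries were far above the rest. nuo-6 raised gmd-2 by 4.499 (adjusted p = 9.61e-07) in the N2 background and by 1.32 (adjusted p = 0.00488) in the itr-1 background, and the interaction was -3.18 ± 0.42 (adjusted p = 0.0012). The itr-1 values of gmd-2 lie near 0, where adding 1 TPM shrinks ratios. The gap between these effects therefore does not measure a gap in fold change. F15D4.5 on chromosome II measured 1.01, 1.23 and 0.982 TPM in N2, 95.1, 90.9 and 99.8 in nuo-6, 2.06, 1.76 and 1.46 in itr-1 and 16.6, 15.1 and 16.3 in the double mutant, with an interaction of -2.91 ± 0.13 (adjusted p = 1.07e-06), and its neighbour F15D4.6 had one of -2.65 ± 0.17 (adjusted p = 1.38e-05). C38D9.2 on chromosome V measured 0.432, 0.336 and 0.234 TPM in N2, 28.3, 28.9 and 28.8 in nuo-6, 0.91, 0.838 and 0.621 in itr-1 and 3.41, 2.96 and 2.52 in the double mutant, at -3.33 ± 0.15 (adjusted p = 1.07e-06). All 3 were robust, and none of these 3 has a role given by its name. The infection response gene dod-22 was 30.8 to 42 TPM in nuo-6 and 10.7 to 19.7 TPM in the other genotypes, at -1.31 ± 0.21 (adjusted p = 0.0036).

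A row of such genes lay side by side on chromosome V (539460 to 595677, 56.2 kb), where 11 of 13 genes tested stood apart as high in nuo-6. The bounds of the region were set by these genes, so the share follows in part from that choice and in part from the filter. C14C6.8, WBGene00015761, K06H6.4, nstp-7, ZK488.6 and ZK488.5 reached 1 TPM in the nuo-6 libraries only, so they were tested only through the group where they are high. C14C6.3 and C14C6.6 reached it elsewhere only in double mutant replicate 2 (1.063 and 1.13 TPM). K06H6.1 did so only in double mutant replicates 2 and 3 (3.259 and 1.3 TPM). These genes too passed the filter only with the nuo-6 libraries. nhr-155, a nuclear hormone receptor gene, measured 0.109, 0.059 and 0.083 TPM in N2, 11.1, 13.9 and 15.2 in nuo-6, 0.327, 0.219 and 0.182 in itr-1 and 2.26, 3.005 and 2.82 in the double mutant. It was near 0 without nuo-6(qm200), highest in the nuo-6 single mutant and lower in the double mutant, with an interaction of -2.16 ± 0.18 (adjusted p = 4.95e-05). K06H6.2 measured 0, 0 and 0.297 TPM in N2, 93.2, 82.3 and 113.9 in nuo-6, 0, 0 and 0 in itr-1 and 1.92, 8.98 and 2.96 in the double mutant, with an interaction of -4.18 ± 0.49 (adjusted p = 5.61e-04). C14C6.6 measured 0, 0 and 0.068 TPM in N2, 15.6, 14.3 and 18.5 in nuo-6, 0.018, 0 and 0.032 in itr-1 and 0.235, 1.13 and 0.627 in the double mutant, at -3.38 ± 0.24 (adjusted p = 2.61e-05). ZK488.6 had an interaction of -2.76 ± 0.22 (adjusted p = 4.11e-05) and C14C6.8 one of -2.86 ± 0.17 (adjusted p = 6.98e-06). nhr-155, C14C6.6, C14C6.8 and WBGene00015761 were robust. Of these, all but nhr-155 passed the filter only with the nuo-6 libraries, so their calls add no support of their own. The double mutant lay above N2 and itr-1 in every library for all 3 of nhr-155, K06H6.2 and C14C6.6. At the edge of the region, C14C6.5 had the opposite sign, at 1.35 ± 0.29 (adjusted p = 0.0165), and was highest in the double mutant.

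For nuclear genes of mitochondrial proteins, shares of calls were near or below those of all genes except for import, where the share rests on 2 calls. The mitochondrial ribosome had 6 negative and no positive interactions among 70, a share near the 8.32% of all genes, with a median of -0.17 and 8, 2 and 0 negative with the covariates; 2 or 3 passed without N2 replicate 1 or 2, itr-1 replicate 1, nuo-6 replicate 2 or 3, or double mutant replicate 1. mrps-14, a protein of its small subunit, measured 87.2, 93.02 and 89.5 TPM in N2, 175, 178 and 184 in nuo-6, 79.8, 78.9 and 81.5 in itr-1 and 113, 113 and 116 in the double mutant. nuo-6 was highest, the double mutant next, and N2 and itr-1 lowest, with no overlap. nuo-6 raised mrps-14 by 0.99 (adjusted p = 5.67e-08) in the N2 background and 0.50 (adjusted p = 1.06e-05) in the itr-1 background, and the interaction was -0.48 ± 0.06 (adjusted p = 7.96e-04). timm-17B.2, a subunit of the inner membrane protein import channel, measured 31.8, 31.6 and 24.3 TPM in N2, 158, 142 and 153 in nuo-6, 43.8, 42.1 and 37.7 in itr-1 and 101, 89.2 and 86.96 in the double mutant. Again nuo-6 was highest and the double mutant next, but here itr-1 lay above N2, with an interaction of -1.19 ± 0.15 (adjusted p = 7.19e-04). Mitochondrial import genes had 2 negative of 15, 13.3% against 8.32%, with 2, 1 and 0 with the covariates, and a median of -0.17. Of these 2 calls, that of timm-17B.2 held in all 12 fits without 1 library and that of tomm-20 ended in 8. The negative calls ranged from 1 to 3 over those fits. Nuclear complex I genes had 3 negative of 33 (ndus-8, lpd-5 and nduf-6) with a median of -0.16, and every member was negative, from -0.27 to -0.03. The complex I share is 9.09%, near the 8.32% of all genes, and 5, 1 and 0 were negative with the covariates. None of the 3 complex I genes passed without nuo-6 replicate 2, and 1 passed without N2 replicate 1, itr-1 replicate 2 or 3, or nuo-6 replicate 3. The call of lpd-5 ended in 7 and that of nduf-6 in 8 of the 12 fits without 1 library. While calls fell, the list medians did not move toward 0 with the covariates. They were -0.22, -0.25 and -0.25 for complex I, -0.21, -0.22 and -0.25 for the mitochondrial ribosome and -0.24, -0.24 and -0.30 for import. All genes had 0.0035, 0.03 and 0.09. After median-of-ratios scaling none of the 3 complex I genes and 1 of the 6 mitochondrial ribosome genes, mrps-14, passed the threshold. The medians of these lists were then -0.07 and -0.09 against 0.02 for all genes. Complexes II to V had 1 negative of 38, the assembly factor gene cox-15, whose call ended in 9 of the 12 fits without 1 library, and no gene of mitochondrial DNA among 12 passed (median 0.15).

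The mitochondrial unfolded protein response, the programme of chaperones and proteases switched on when mitochondria are stressed, had 1 call. Of 23 members 1 was negative, the protease gene clpp-1, whose call held in the fits without itr-1 replicate 1 and without double mutant replicate 1 and ended in the other 10 without 1 library, with a median of -0.03; the median member was 0.57 higher with nuo-6 in the N2 background and 0.45 higher in the itr-1 background. hsp-6, the mitochondrial Hsp70 chaperone used as its reporter, measured 278, 312 and 259.7 TPM in N2, 454, 487 and 477 in nuo-6, 311, 310.3 and 304 in itr-1 and 481, 471 and 504 in the double mutant. nuo-6 raised hsp-6 by 0.74 (adjusted p = 4.58e-06) in the N2 background and by 0.65 (adjusted p = 2.03e-05) in the itr-1 background, and the interaction was -0.09 ± 0.09 (adjusted p = 0.55). atfs-1, the transcription factor that drives the response, rose by 0.99 (adjusted p = 2.66e-06) and 1.09 (adjusted p = 2.60e-06), with an interaction of 0.11 ± 0.11 (adjusted p = 0.551). gpd-2, a glycolytic enzyme gene induced with it, rose by 1.101 (adjusted p = 4.19e-06) and 1.19 (adjusted p = 4.75e-06), with an interaction of 0.09 ± 0.13 (adjusted p = 0.706). These 3 were named for their role and after their values were seen.

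Several stress genes were raised by each mutation alone and reached less than the sum of these effects in the double mutant. tbb-6, a beta-tubulin gene that is switched on when mitochondria are impaired, measured 3.33, 4.33 and 2.97 TPM in N2, 124, 111.5 and 111 in nuo-6, 22.5, 20.2 and 18.8 in itr-1 and 195, 194 and 202 in the double mutant. The 4 genotypes followed in the order N2, itr-1, nuo-6 and double mutant with no overlap. On the log2 scale nuo-6 raised tbb-6 by 4.69 (adjusted p = 2.73e-10) in the N2 background and by 3.21 (adjusted p = 2.90e-08) in the itr-1 background, an interaction of -1.49 ± 0.15 (adjusted p = 1.54e-04). On linear TPM the sign turned: the interaction was 64.3 TPM, because the double mutant exceeded the sum of the differences in TPM. far-3, a fatty acid and retinol binding protein gene, measured 1.48, 1.99 and 2.003 TPM in N2, 41.5, 43.4 and 37.8 in nuo-6, 38.2, 22.8 and 25.9 in itr-1 and 143, 179 and 174 in the double mutant. Its double mutant libraries were far above both single mutants, yet below the sum of their log2 effects, so the interaction was -1.40 ± 0.23 (adjusted p = 0.00458) on the log2 scale and 97.2 on linear TPM. mtl-1, a metallothionein gene and target of the insulin-pathway factor DAF-16, measured 0.625, 0.347 and 0.165 TPM in N2, 37.8, 21.5 and 31.6 in nuo-6, 7.80, 3.64 and 5.69 in itr-1 and 31.8, 32.5 and 30.2 in the double mutant, so the double mutant lay within the range of nuo-6, with an interaction of -2.16 ± 0.34 (adjusted p = 0.00314). sod-3, mitochondrial superoxide dismutase and another DAF-16 target, measured 1.87, 2.24 and 1.81 TPM in N2, 17.99, 18.3 and 18.4 in nuo-6, 3.93, 3.14 and 3.76 in itr-1 and 15.96, 15.9 and 17.5 in the double mutant, with the double mutant just below nuo-6, at -0.77 ± 0.13 (adjusted p = 0.00456). DAF-16 targets had 5 negative and no positive of 21, 23.8% against 8.32% of all genes, and 5, 3 and 0 negative with the covariates.

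Genes with a strong itr-1 effect gave the same form from the other side. ugt-18, a UDP-glucuronosyltransferase gene, measured 0.087, 0.168 and 0.07 TPM in N2, 3.06, 2.13 and 1.95 in nuo-6, 51.2, 47.2 and 38.1 in itr-1 and 45.5, 50.3 and 66.9 in the double mutant. It was high in both genotypes with itr-1(sa73), whose libraries overlapped, and slightly raised by nuo-6 alone, with an interaction of -1.36 ± 0.23 (adjusted p = 0.00528) that turned to a positive value of 6.49 TPM, not past the threshold, on linear TPM. ech-9, a peroxisomal enoyl-CoA hydratase gene, measured 0.738, 0.963 and 0.504 TPM in N2, 3.89, 2.096 and 2.29 in nuo-6, 119.5, 97.3 and 77.8 in itr-1 and 42.4, 49.6 and 64.03 in the double mutant, where the double mutant was below itr-1, at -1.995 ± 0.30 (adjusted p = 0.00251). fat-5, a palmitoyl-CoA desaturase gene, measured 1.503, 2.96 and 3.17 TPM in N2, 26.6, 11.9 and 14.3 in nuo-6, 48.3, 19.2 and 34.8 in itr-1 and 38.8, 34.5 and 34.2 in the double mutant; all mutants were above N2 and the interaction was -2.19 ± 0.48 (adjusted p = 0.0181).

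In the double mutant alone, or more than in either single mutant, another set of genes was high. Fatty acid desaturases that make polyunsaturated fats were among them. fat-4, the delta 5 desaturase, measured 327, 291 and 302 TPM in N2, 300.0, 283 and 298 in nuo-6, 267, 265 and 275 in itr-1 and 404, 465 and 429 in the double mutant. The double mutant was above all other libraries, and the other 3 genotypes were close to each other. The nuo-6 effect on fat-4 was -0.06 (adjusted p = 0.421) in the N2 background and 0.68 (adjusted p = 1.27e-05) in the itr-1 background, with an interaction of 0.74 ± 0.08 (adjusted p = 4.52e-04). fat-2, the delta 12 desaturase, measured 341, 346 and 302 TPM in N2, 372, 385 and 371 in nuo-6, 358, 308 and 324 in itr-1 and 592, 521 and 614 in the double mutant, again with the double mutant above all others, at 0.61 ± 0.11 (adjusted p = 0.00651). fat-1, the omega-3 desaturase, was 393 to 460 TPM in the double mutant and 232 to 308 TPM elsewhere, at 0.53 ± 0.12 (adjusted p = 0.0203). Of 24 fatty acid synthesis genes, these 3 were positive, and fat-5 and fat-7 were negative. The negative share was near the 8.32% of all genes. The positive share was above the 3.69% of all genes but rests on these 3 calls. With the covariates 2, 1 and 0 were positive and 1, 0 and 0 negative.

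cysl-2, a cysteine synthase-like gene that responds to hypoxia and hydrogen sulfide, measured 81.5, 79.02 and 77.5 TPM in N2, 158, 208 and 153 in nuo-6, 65.1, 56.3 and 64.8 in itr-1 and 379.7, 353 and 465 in the double mutant. It was higher in nuo-6 than in N2 and the double mutant went higher still, although itr-1 alone lay below N2, with an interaction of 1.56 ± 0.18 (adjusted p = 4.03e-04). rab-11.2, a small GTPase gene of the recycling endosome family, measured 0.261, 0.456 and 0.072 TPM in N2, 3.17, 0.545 and 1.06 in nuo-6, 0.911, 0.671 and 2.03 in itr-1 and 57.6, 21.2 and 34.7 in the double mutant. The double mutant libraries were far above all others, with an interaction of 3.16 ± 0.57 (adjusted p = 0.00679). cyp-13A7, a cytochrome P450 gene, measured 0.036, 0.058 and 0.018 TPM in N2, 7.38, 2.39 and 3.87 in nuo-6, 0.277, 0.146 and 0.156 in itr-1 and 30.9, 15.8 and 21.9 in the double mutant, so that it was at most 0.277 TPM without nuo-6(qm200) and highest where both mutations were present, at 1.96 ± 0.41 (adjusted p = 0.0149). Its N2 and itr-1 values lie near 0, where adding 1 TPM shrinks ratios, so this interaction does not measure a gap in fold change. Cytochromes P450 had 10 positive and 6 negative of 60, 16.7% and 10% beside 3.69% and 8.32% of all genes, with 3, 0 and 0 positive and 6, 3 and 0 negative with the covariates, and 5 or 6 positive without itr-1 replicate 2, nuo-6 replicate 2 or double mutant replicate 1 or 3. srw-85, a putative chemoreceptor gene, measured 4.23, 4.61 and 3.08 TPM in N2, 0.708, 0.197 and 0.517 in nuo-6, 15.6, 12.55 and 17.98 in itr-1 and 41.2, 30.3 and 49.3 in the double mutant. For srw-85 the effect of nuo-6 was -1.76 (adjusted p = 4.21e-05) in the N2 background and, in the itr-1 background, 1.32 (adjusted p = 4.92e-04), an interaction of 3.08 ± 0.29 (adjusted p = 1.11e-04). cpr-2, a cathepsin B-like protease gene, was 3.83 to 4.61 TPM in the double mutant and at most 1.53 TPM elsewhere, at 1.29 ± 0.19 (adjusted p = 0.00237). Calls of rab-11.2 and cyp-13A7 ended with the oocyte covariate (adjusted p = 0.055 and 0.0939).

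Folding enzymes of the endoplasmic reticulum, the compartment that holds the InsP3 receptor, had 8 positive and no negative interactions among 32, 25% against 3.69% of all genes, with a median of 0.12 and 3, 1 and 0 positive with the covariates; 4 or 5 passed without N2 replicate 1 or nuo-6 replicate 2 or 3. pdi-3, a protein disulfide isomerase gene, measured 835, 879 and 876 TPM in N2, 565, 559 and 535 in nuo-6, 752, 754 and 792 in itr-1 and 682, 669 and 737 in the double mutant. nuo-6 was lowest, the double mutant next, then itr-1 and N2, with no overlap, so the nuo-6 effect on pdi-3 was -0.64 (adjusted p = 2.18e-06) in the N2 background and -0.14 (adjusted p = 0.0343) in the itr-1 background, an interaction of 0.50 ± 0.07 (adjusted p = 0.00123). pdi-2, another isomerase and a partner of collagen prolyl hydroxylase, had an interaction of 0.65 ± 0.12 (adjusted p = 0.00858), and its partner phy-2 one of 0.68 ± 0.12 (adjusted p = 0.0076). crt-1, calreticulin, the calcium-binding chaperone of the store, measured 1685, 1744 and 1554 TPM in N2, 1280, 1239 and 1134 in nuo-6, 1619, 1704 and 1758 in itr-1 and 1627, 1563 and 1836 in the double mutant. All 3 nuo-6 libraries were lowest and the other genotypes overlapped, with an interaction of 0.43 ± 0.10 (adjusted p = 0.0229); the call ended without N2 replicate 1 (adjusted p = 0.0571) and without nuo-6 replicate 3 (0.0576). After median-of-ratios scaling 11 of the 32 were positive. The lysozyme gene lys-4 was also low in nuo-6 alone, at 184, 209.6 and 187 TPM in N2, 57.2, 66.9 and 63.6 in nuo-6, 329, 232 and 295 in itr-1 and 263, 212 and 299.7 in the double mutant. The double mutant lay above N2 and overlapped itr-1, and the interaction was 1.47 ± 0.20 (adjusted p = 0.0013).

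Of 32 InsP3 signalling genes 3 were negative and none positive, a negative share of 9.38% near the 8.32% of all genes, with 2, 1 and 0 negative with the covariates and a median of -0.05. tpa-1, a protein kinase C that acts below phospholipase C, measured 12.37, 12.9 and 11.9 TPM in N2, 23.8, 22.8 and 24.02 in nuo-6, 22.6, 20.3 and 23.2 in itr-1 and 28.3, 25.4 and 29.3 in the double mutant. N2 was lowest and the double mutant highest, with an interaction of -0.56 ± 0.11 (adjusted p = 0.00887). gtl-1, a TRPM channel of the intestine, was at -0.68 ± 0.16 (adjusted p = 0.0229), and lfe-2, an InsP3 kinase, at -0.32 ± 0.08 (adjusted p = 0.0278). The call of gtl-1 ended without N2 replicate 1, nuo-6 replicate 2 or double mutant replicate 1 (adjusted p = 0.0504 to 0.0590), and that of lfe-2 in 6 of the 12 fits without 1 library, those without N2 replicates 1 and 3, without any of the 3 nuo-6 replicates and without double mutant replicate 1. egl-8, a phospholipase C beta, had an interaction of -0.07 ± 0.08 (adjusted p = 0.633) and plc-3, a phospholipase C gamma, one of 0.08 ± 0.15 (adjusted p = 0.761). Among 22 genes of calcium stores and mitochondrial calcium uptake, crt-1 was the 1 call; the mitochondrial uniporter mcu-1 was at -0.35 ± 0.14 (adjusted p = 0.129).

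Non-muscle actomyosin genes had 4 negative and 2 positive interactions among 65, shares near those of all genes and 0 in either direction with each covariate, with a median of -0.04. nmy-1, a non-muscle myosin heavy chain, measured 90.5, 104.1 and 101 TPM in N2, 136, 128 and 134 in nuo-6, 135, 134 and 107 in itr-1 and 105, 124 and 83.6 in the double mutant. Both single mutants lay above N2 and the double mutant overlapped N2 and itr-1, with an interaction of -0.70 ± 0.19 (adjusted p = 0.0367). mlc-4, the regulatory light chain of that myosin, measured 208, 233 and 226 TPM in N2, 294, 276 and 289 in nuo-6, 262, 295 and 243 in itr-1 and 246, 281 and 214 in the double mutant, at -0.48 ± 0.14 (adjusted p = 0.0459). nmy-2, the other non-muscle heavy chain, did not pass, at -0.31 ± 0.17 (adjusted p = 0.266). The 4 negative calls became 1 without N2 replicate 1 or 3, without itr-1 replicate 1, without any 1 of the nuo-6 libraries or without double mutant replicate 1, became 2 without itr-1 replicate 2, and became 7 without double mutant replicate 2. nmy-1, nmy-2 and mlc-4 were named for their role after their values were seen. Genes of mitochondrial fission, fusion and mitophagy had 2 negative of 21, a share of 9.52% near that of all genes, and 3 others are given here for their role. The fission gene drp-1 had an interaction of -0.21 ± 0.09 (adjusted p = 0.154), the fusion gene fzo-1 one of -0.20 ± 0.09 (adjusted p = 0.173) and the fusion gene eat-3 one of -0.31 ± 0.09 (adjusted p = 0.0579).

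Among muscle genes, 12 of 56 sarcomere and attachment genes were negative, 21.4% against 8.32% of all genes, and none positive, with a median of -0.14. With the covariates 4, 1 and 0 were negative, while the list median was -0.19, -0.18 and -0.20 against 0.0035, 0.03 and 0.09 for all genes. The calls thus fell while the median did not move toward 0. The 12 became 7 without N2 replicate 1, nuo-6 replicate 2 or double mutant replicate 1, and 5 without nuo-6 replicate 3. lev-11, tropomyosin, measured 1703, 1698 and 1672 TPM in N2, 1806, 1832 and 1866 in nuo-6, 1547, 1586 and 1578 in itr-1 and 1451, 1454 and 1420 in the double mutant. The double mutant was lowest and nuo-6 highest with no overlap between genotypes, and the interaction was -0.24 ± 0.05 (adjusted p = 0.0105). act-1, a muscle actin, was 1423 to 1468 TPM in the double mutant and 1620 to 1919 TPM elsewhere, at -0.27 ± 0.06 (adjusted p = 0.0145), and mlc-1, a myosin regulatory light chain, was 676 to 719 TPM in the double mutant and 799 to 983 TPM elsewhere, at -0.22 ± 0.05 (adjusted p = 0.0217). zyx-1, zyxin, was at -0.37 ± 0.07 (adjusted p = 0.0107) and lim-8, a protein of muscle attachment sites, at -0.92 ± 0.14 (adjusted p = 0.00318). After median-of-ratios scaling 4 of the 56 were called, with a median of -0.05 against 0.02 for all genes, and lev-11 was not among them (adjusted p = 0.211). The summed level of 6 body wall muscle markers was 3618 to 3786 TPM in N2, 2820 to 2855 in the double mutant, 3494 to 3648 in nuo-6 and 3153 to 3242 in itr-1.

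**Figure D4:**
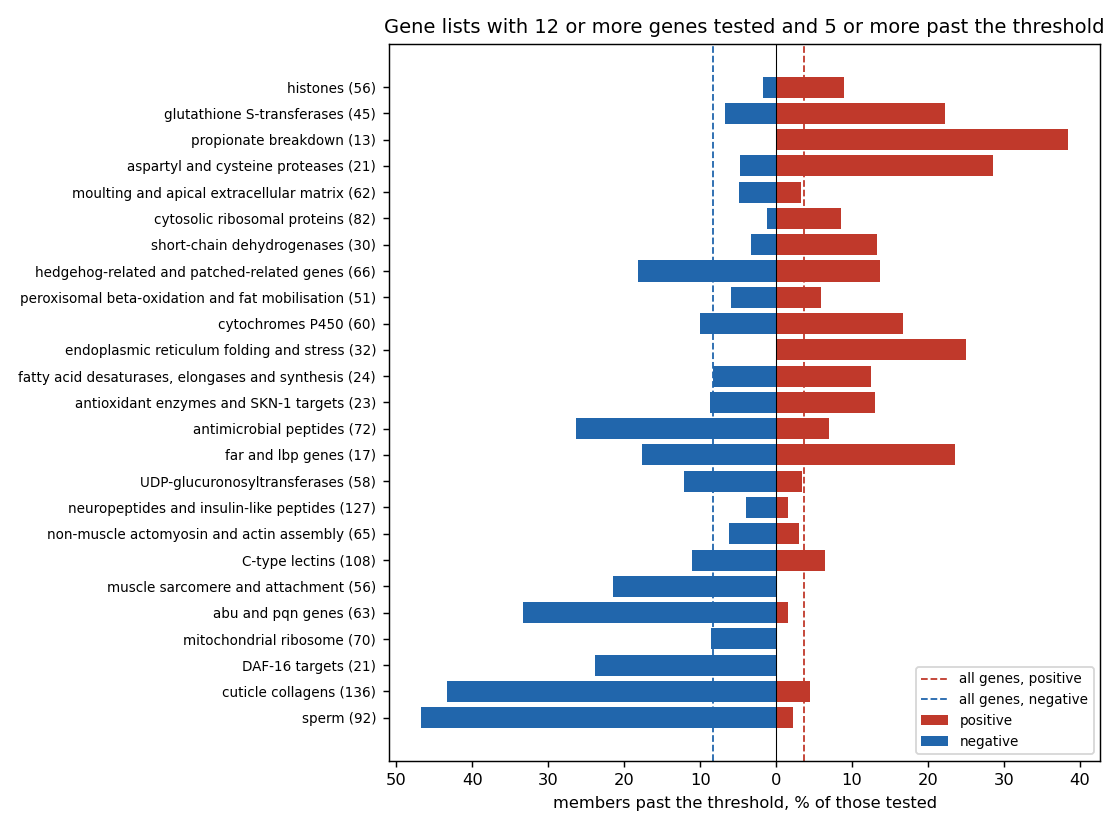
Share of the members tested with a positive (right) or negative (left) interaction, in percent (horizontal axis), for each gene list with at least 12 genes tested and 5 past the threshold, ordered by median interaction with the number tested in brackets. Dashed lines mark the shares over all genes, 3.69% positive and 8.32% negative; sperm genes, cuticle collagens and abu and pqn genes extend farthest to the left, and propionate breakdown genes farthest to the right.

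Cytosolic ribosomal proteins, whose median nuo-6 effect was -0.34 in the N2 and -0.17 in the itr-1 background, had 7 positive and 1 negative interaction among 82, with a median of 0.17 on TPM, 0.26 after median-of-ratios scaling and 0.02 after quantile normalization, where all genes had a median of 0.07, so the sign relative to all genes flipped. None was called with any of the covariates. Positive calls were 39 without double mutant replicate 2, at most 4 without any 1 of the other 11 libraries, and 0 in 5 of those fits. rps-6 was at 0.25 ± 0.06 (adjusted p = 0.0341), and of the 12 fits without 1 library its call held in those without N2 replicate 3 and without double mutant replicate 2. The proteasome had no call among 33 (median 0.09). Histones had 5 positive and 1 negative of 56; their transcripts mostly lack the poly(A) tail that these libraries select. Aspartyl and cysteine proteases had 6 positive and 1 negative of 21, nuclear hormone receptors 3 positive and 1 negative of 186, and neuropeptides 2 positive and 5 negative of 127. These counts stand beside the 3.69% positive and 8.32% negative of all genes without a covariate. With the covariates, where the shares over all genes were lower, positive calls were 3, 0 and 0 for histones and 3, 0 and 0 for the proteases. They were 0, 0 and 0 for the receptors, and negative calls of neuropeptides were 9, 4 and 0. Over the 12 fits without 1 library the positive calls ranged from 2 to 5 for histones, 3 to 8 for these proteases, 1 to 5 for nuclear hormone receptors, 1 to 10 for C-type lectins, 3 to 10 for antimicrobial peptides and 0 to 11 for collagens, and the negative calls of neuropeptides from 4 to 8.

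Yolk protein genes illustrate how far single libraries can decide a value. vit-2 measured 37.7, 247 and 83.7 TPM in N2, 213, 544 and 488 in nuo-6, 214, 1108 and 257 in itr-1 and 31.1, 270.1 and 27.98 in the double mutant. Replicate 2 was the highest library in each genotype, and each genotype overlapped others. The interaction was -4.69 ± 1.35 (adjusted p = 0.0464), and the call ended in 10 of the 12 fits without 1 library, the exceptions being those without N2 replicate 2 and without double mutant replicate 2. vit-6 was alike, at -4.52 ± 1.31 (adjusted p = 0.0475), with the call ending in 10 of the 12 fits. Replicate 2 was also the highest library of each genotype for the oocyte and sperm lists; without the 4 libraries numbered 2, the number of genes past the threshold was 1566, of which 1121 were among the 1829.

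Runs of neighbouring genes were also counted. Runs of at least 4 genes that were called with at least a 2-fold interaction and lay within 15 kb of each other, a rule chosen after the data were seen, numbered 22 and held 117 of the 836 such genes. Of those 836 genes 732 were negative, a share against which runs of 1 sign are to be read. In 17 runs all members were negative, in 2 all were positive (the pud cluster and the genes around exh-1), and 3 were mixed. The negative runs included clusters with msp genes on chromosome IV, the fipr genes on chromosome V (10220981 to 10239961), the nspb genes on chromosomes II and IV and the idpc genes on chromosome V. nspb-2, which encodes a nematode-specific peptide of unknown role, measured 4.398, 5.91 and 2.56 TPM in N2, 19.2, 23.3 and 23.3 in nuo-6, 26.3, 25.1 and 20.7 in itr-1 and 6.49, 11.9 and 9.88 in the double mutant. N2 was lowest, both single mutants highest and the double mutant between, with an interaction of -3.46 ± 0.34 (adjusted p = 1.54e-04). Genes in such clusters are often near-identical copies, so neighbours are not independent of one another. By chromosome, 14.4% of the genes tested on IV and 13.8% on V were called, against 9.13% on III, 10.7% on I, 11.23% on II and 12.3% on X.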

How the data were processed

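Whole L4 worms of 4 genotypes, with 3 libraries each, were measured by poly(A)-selected, stranded RNA sequencing, per the labels' protocols. The authors deposited 1 table of TPM values per gene and library, with build WBcel235 named in the submitters' processing notes; which programs aligned the reads and computed TPM is not given in the sources used. TPM keeps no depth, so no count test, interval or detection limit could be given, and 0 columns belonged to other samples. All 46926 gene IDs matched the annotation. TPM sets each library to the same total, so a rise in abundant genes lowers the values of the others.

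A gene was kept where 3 or more libraries reached 1 TPM, and log2(TPM + 1) was fitted with limma 3.58.1 (R 4.3.3) with 1 mean per genotype, a trended empirical Bayes prior and 8 residual degrees of freedom. Adjusted p-values are Benjamini-Hochberg values over all genes tested, two-sided, with a threshold of 0.05. Fold changes on this scale understate the change of low genes. The script was tested on simulated data. Figures were drawn with matplotlib 3.10.9, and tables were made with numpy 2.4.6 and pandas 2.3.3 under Python 3.11.15. Replicates are called biological, and p-values measure the spread between these libraries.

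Members and gene lists were chosen with earlier results of these data known. Genes were named by rule: past the threshold, with a gene symbol, at least 5 TPM in the highest genotype and the same sign in all 81 choices of 1 library per genotype, taking the 12 largest in each direction with at most 2 per family, plus up to 3 of the smallest adjusted p per list, plus itr-1 and nuo-6. Genes known only by sequence name or ID, genes described as runs, and those said to be chosen later fall outside it. So do fat-1, act-1, mlc-1, egl-8, plc-3, mcu-1 and some list members named without values. All of these were singled out after values were seen. The definition of a genotype standing apart, the rule for runs and the adult collagen covariate were also chosen then. Alternatives were other pseudocounts, filters, scalings, scales, variance models, covariates, a replicate block and leaving out libraries.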

Additional observations from a re-analysis of the deposited data

Results flagged for a closer look

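The effect of nuo-6(qm200) differed between the N2 and itr-1(sa73) backgrounds for 1829 genes by the test of the interaction itself. For 175 of these genes nuo-6(qm200) passed the threshold in both backgrounds in opposite directions. For 92 of them the same held for itr-1(sa73) in the N2 and nuo-6(qm200) backgrounds.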

How the results depend on the processing

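The 1829 calls, 1267 of them negative and 3.69% of the genes tested positive, depended on several choices, and the cause was not tested. Other pseudocounts, a filter of 5 TPM and variance models without weights kept the counts within 1.5 times. Positive calls, as a percent of the genes tested, were 2.20 with no filter (which tests 21433 genes), 6.52 after median-of-ratios scaling, 7.05 after quantile normalization and 5.55 on linear TPM. Array weights, whose estimation stopped early, gave 3936 calls (2537 negative, 9.19% positive). The replicate block gave 2762 (1911 negative, 5.59% positive) and changed the call of none of the 135 named genes; 4 of 12 libraries correlated best with their own number throughout. Same-numbered libraries correlated above 0.1 in 11 of 18 pairs, all 6 pairs numbered 2 among them. The main fit has no term for the numbers because the labels do not say what they share. What the libraries numbered 2 have in common was not tested. With the block 21 of the 29 oocyte genes were negative, against 1 without it. Without the libraries numbered 2, 2.28% were positive. Covariates left 818 calls (637 negative, 1.19% positive) with the oocyte mean, 370 (302 and 0.446%) with the sperm mean and 50 (36 and 0.0919%) with the adult collagen mean. A 2-fold minimum left 836 (732 and 0.683%). Leaving out 1 library gave 881 to 2637 calls, 668 to 1868 negative and 1.4% to 5.05% positive. With the adult collagen covariate these interactions turned sign: vap-2 1.02, fipr-13 0.84, nas-20 1.48, sip-1 1.203, vit-2 1.78, vit-6 1.47, perm-4 0.94, htp-2 0.082 and itr-1 0.15. On linear TPM allo-1 turned to 13.2, ugt-18 to 6.49, tbb-6 to 64.3, far-3 to 97.2 and pals-6 to 9.72, and on the square root scale tbb-6 turned to 0.63 and far-3 to 2.44. Without counts, what depth limits cannot be given.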
